A study of Homo sapiens with 6 samples.

Results

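Mitochondria divide and fuse continuously, and the 10 genes described here encode core proteins that carry out or control both processes: MFN1, MFN2 and OPA1 for fusion, with OMA1, which acts on OPA1, and DNM1L, FIS1, MFF, MIEF1, MIEF2 and INF2 on the side of fission. They were named by role, out of 58174 genes with a mean expression level, and 10 of 10 were found. The libraries are labelled as AGS, a human line established from a gastric adenocarcinoma, and form 2 groups of 3. The si-NC cells received a negative control siRNA and the si-FTO cells an siRNA against FTO, an enzyme that removes methyl groups from N6-methyladenosine in RNA. The submitters also labelled the genotype of the si-NC libraries as wild type and that of the si-FTO libraries as FTO-/-, whereas the sample titles and the methods describe siRNA, and the labels do not say whether the 3 libraries of a group came from separate cultures. Expression is given as TPM, the share of a gene among all transcripts after correction for transcript length, and as the authors' mean of each group. With 1 mean per group the spread over libraries is unknown and no test was run here, the p-values that the authors deposited were not used, the sequencing depth is unknown, and every difference below is a description of those means.

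In fusion, the GTPases MFN1 and MFN2 join the outer membranes of neighbouring mitochondria and the GTPase OPA1 joins the inner membranes, while the inner membrane protease OMA1 cleaves OPA1 under stress and so limits fusion. In fission, the GTPase DNM1L, also called DRP1, is drawn from the cytosol to the outer membrane by the receptors FIS1, MFF, MIEF1 and MIEF2, assembles into a ring and constricts the organelle. INF2 is a formin of the endoplasmic reticulum that polymerises actin where this network crosses a mitochondrion, a step that precedes constriction. The balance between both processes sets whether mitochondria are fragmented or form a network, and in tumour cells it is studied in relation to migration, metabolism and cell death. The question here was how the transcripts of this machinery compared between control and FTO-depleted cells.

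FTO itself was at 33.1 TPM in si-NC against 7.27 TPM in si-FTO, 4.56-fold lower in the group labelled as depleted. Markers of cell type differed much more. Of 15 epithelial markers, 6 reached 1 TPM with si-NC and 9 with si-FTO, and their summed level was 72.0 TPM in si-NC versus 5423 TPM in si-FTO. KRT18 was the most abundant of them in si-NC at 52.1 TPM, and KRT8 in si-FTO at 3139 TPM, against 10.8 TPM in si-NC. KRT7 was listed at 0 in si-NC and was at 253 TPM in si-FTO. EPCAM, CDH1 and KRT19, which commonly define epithelial cells, were low in both groups. EPCAM was at 1.22 TPM in si-NC against 0.113 TPM in si-FTO, CDH1 was at 3.67 TPM in si-NC versus 0.685 TPM in si-FTO, and KRT19 was listed at 0 with si-NC and was at 0.130 TPM with si-FTO. ESRP1 and GRHL2 were listed at 0 in si-FTO and were also near 0 in si-NC, at 0.0830 TPM for ESRP1 and 0.00370 TPM for GRHL2. Of the 11 epithelial markers with at least 0.5 TPM in at least 1 group, 9 were higher in si-FTO by a log2 ratio of at least 1, with 1 TPM added to each mean, and 1, CDH1, was lower by that measure.

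Of 10 fibroblast and mesenchymal markers, 7 reached 1 TPM in each group, with a summed level of 546 TPM in si-NC versus 816 TPM in si-FTO. VIM was the most abundant in both, at 440 TPM in si-NC against 752 TPM in si-FTO, whereas CDH2 was at 53.7 TPM with si-NC and 1.25 TPM with si-FTO, and COL1A2, at 0.00982 TPM with si-NC, was listed at 0 with si-FTO. Of the 9 that could be compared, 3 were lower by the same measure, CDH2, FN1 and COL3A1, and 2 were higher, COL1A1 and PDGFRB. PTPRC, which defines white blood cells, was listed at 0 in both groups. The 2 endothelial markers that were matched summed to 0.0132 TPM in si-NC versus 41.0 TPM in si-FTO, nearly all of it CDH5. Marker differences of this size leave it in doubt that both groups hold the same cells, as their shared label says, and this was not tested. The differences cannot be told apart from the siRNA treatment, and every ratio of si-FTO to si-NC given here carries that doubt. Their part in the values of the fission and fusion genes was not tested.

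The machinery was expressed throughout in both groups, from 5.39 TPM for MIEF2 to 120.5 TPM for MIEF1 in si-NC, and from 6.08 TPM for MIEF2 to 167 TPM for FIS1 in si-FTO. The widest differences were those of the receptor MIEF1, which was lower in si-FTO, and of the formin INF2, which was higher. A gene was counted as past the fold threshold when its log2 ratio of si-FTO over si-NC mean TPM, with 1 TPM added to each mean, was at least 1 in size. The added 1 TPM understates differences of genes with low levels. Of the 10 members, 1 was lower past this threshold, 1 was higher and 8 were within it. Among the 20493 genes with a mean of at least 0.5 TPM in at least 1 group, 17.0% were lower, 11.4% were higher and 28.5% were past the threshold in either direction, and among the 12967 genes with at least 5 TPM in at least 1 group the last share was 30.7%. The excess of lower over higher genes depended on the scaling: 3492 were lower and 2340 higher as deposited, 2885 and 2786 with median-ratio scaling, and 2902 and 2803 with quantile normalization. The members' count of 2 in 10 was thus near the share of all genes, and it does not set the machinery apart. The median log2 ratio of the members was 0.12, or 0.33 with the median-ratio scaling, with 4 below 0 and 6 above as deposited, and that of all genes compared was -0.20, with 12279 below 0 and 8214 above. Scaling the groups by the median ratio of the genes compared, which removes a shift of -0.21, left MIEF1 at a log2 ratio of -1.01 and INF2 at 2.03, both still past the threshold.

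**Figure D1:**
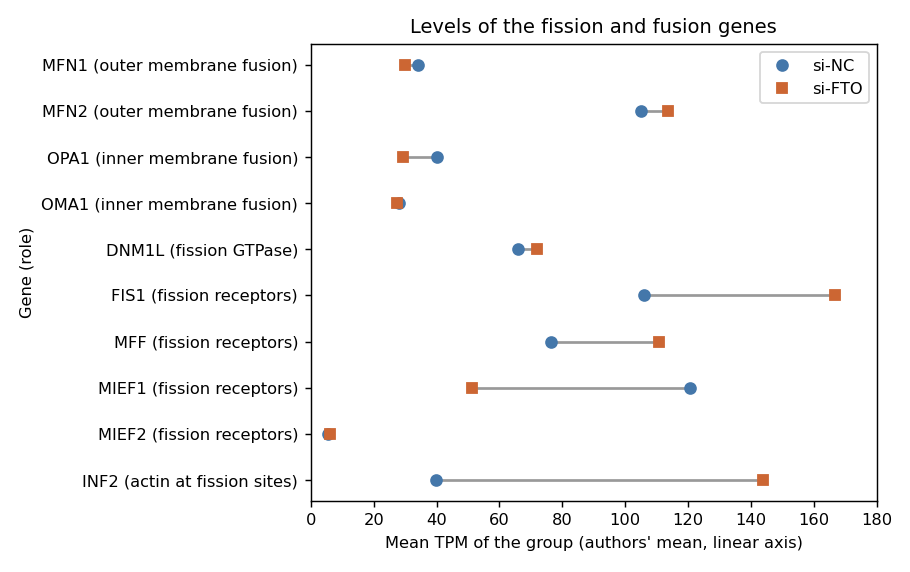
Mean TPM of each of the 10 fission and fusion genes in si-NC (blue circles) and si-FTO (orange squares), on a linear axis, with genes ordered by role and a grey line joining the group means. The longest lines are those of INF2, from 39.9 to 144 TPM, and MIEF1, from 120.5 to 51.2 TPM.

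The fusion GTPases of the outer membrane were at similar levels in both groups. MFN1 (ENSG00000171109, GRCh37 chr3:179065497-179112724, plus strand) was at 34.0 TPM in si-NC against 30.1 TPM in si-FTO, with a log2 ratio of -0.17 that turned to 0.03 with median-ratio scaling. MFN2 (ENSG00000116688, chr1:12040238-12075268, plus strand), which besides fusion tethers mitochondria to the endoplasmic reticulum, was at 105 TPM with si-NC and 114 TPM with si-FTO, a log2 ratio of 0.11. MFN2 was the more abundant mitofusin transcript in each group, with 3.09 times the level of MFN1 in si-NC versus 3.78 times in si-FTO. Summed, both mitofusins came to 139 TPM in si-NC against 144 TPM in si-FTO.

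At the inner membrane, OPA1 (ENSG00000198836, chr3:193310933-193415600, plus strand) was at 40.1 TPM with si-NC and 29.2 TPM with si-FTO, 1.37-fold lower, with a log2 ratio of -0.44, or -0.24 with median-ratio scaling. A larger difference in size was found for 60.2% of the genes compared. OMA1 (ENSG00000162600, chr1:58881056-59012474, minus strand) was at 28.1 TPM in si-NC versus 27.5 TPM in si-FTO, with a log2 ratio of -0.03 that turned to 0.17 with median-ratio scaling and to 0.01 with quantile normalization. The 3 fusion GTPases together were at 179 TPM in si-NC against 173 TPM in si-FTO.

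DNM1L (ENSG00000087470, chr12:32832134-32898584, plus strand), the GTPase that constricts mitochondria, was at 66.05 TPM with si-NC and 72.0 TPM with si-FTO, a log2 ratio of 0.12. DNM1L stood at 1.65 times the level of OPA1 in si-NC versus 2.47 times in si-FTO. DNM1L overlaps YARS2 on the opposite strand, which was at 43.5 TPM in si-NC against 43.2 TPM in si-FTO. Whether reads were assigned by strand is not given in the sources used here, so reads of overlapping genes are uncertain.

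The receptors that recruit DNM1L differed among themselves. FIS1 (ENSG00000214253, chr7:100882739-100895597, minus strand), a small protein anchored in the outer membrane by its tail, was at 106 TPM with si-NC and 167 TPM with si-FTO, 1.57 times the control level with a log2 ratio of 0.65. MFF (ENSG00000168958, chr2:228189867-228222549, plus strand), a major recruiter of DNM1L in mammalian cells, was at 76.3 TPM in si-NC versus 111 TPM in si-FTO, 1.45 times the control level with a log2 ratio of 0.53. Both were within the fold threshold.

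MIEF1 and MIEF2 are related outer membrane proteins that bind DNM1L independently of FIS1 and MFF, and an excess of MIEF1 can hold DNM1L in an inactive state. MIEF1 (ENSG00000100335, chr22:39895437-39914137, plus strand) was at 120.5 TPM in si-NC against 51.2 TPM in si-FTO. It was 2.35-fold lower in si-FTO, with a log2 ratio of -1.22, and 22.1% of the genes compared had a log2 ratio of larger size. Its level exceeded that of 93.9% of the genes compared in si-NC and of 84.1% in si-FTO. MIEF2 (ENSG00000177427, chr17:18163911-18169866, plus strand) was at 5.39 TPM with si-NC and 6.08 TPM with si-FTO, a log2 ratio of 0.15, so that MIEF1 had 22.3 times the level of MIEF2 in si-NC versus 8.43 times in si-FTO. MIURF, a protein-coding gene annotated inside MIEF1 on the same strand (chr22:39900236-39900448), had no entry among the genes with a mean expression level. How reads over the shared bases were assigned is uncertain.

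The summed level of the 4 receptors was close in both groups, at 308 TPM in si-NC against 335 TPM in si-FTO, but its make-up was not. MIEF1 held 39.1% of the sum with si-NC and 15.3% with si-FTO. FIS1 held 34.4% in si-NC versus 49.8% in si-FTO, and MFF held 24.8% in si-NC against 33.1% in si-FTO. MIEF2 held 1.75% with si-NC and 1.81% with si-FTO. FIS1 was at 0.880 times the level of MIEF1 in si-NC versus 3.26 times in si-FTO, and MFF was at 0.634 times in si-NC against 2.16 times in si-FTO. MIEF1 was the most abundant receptor transcript in si-NC and ranked behind FIS1 and MFF in si-FTO. A ratio of 2 genes within a group does not change when all values of the group are multiplied by the same factor.

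**Figure D2:**
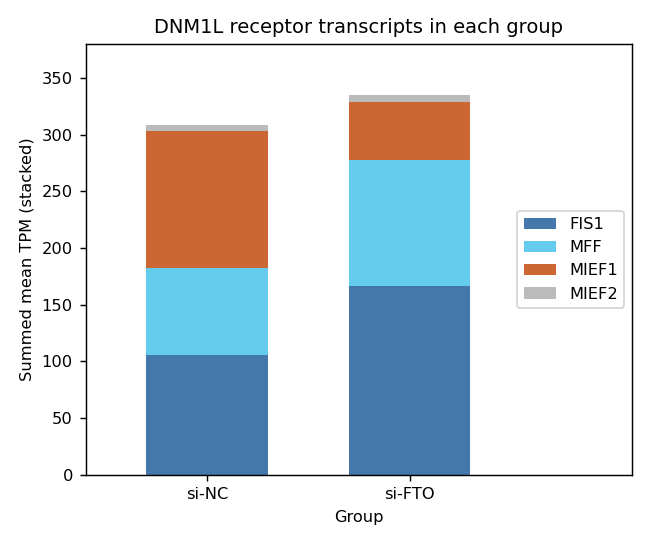
Stacked bars of mean TPM of the DNM1L receptors FIS1, MFF, MIEF1 and MIEF2 in si-NC and si-FTO, with the bar height giving their summed level. The bars are of similar height, 308 and 335 TPM, while the orange share of MIEF1 is 39.1% with si-NC and 15.3% with si-FTO.

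INF2 (ENSG00000203485, chr14:105147483-105188872, plus strand) was at 39.9 TPM in si-NC versus 144 TPM in si-FTO. This was 3.60 times the control level, with a log2 ratio of 1.82, and 12.6% of the genes compared had a log2 ratio of larger size. INF2 exceeded 79.8% of the genes compared in si-NC against 94.8% in si-FTO. It was at 0.604 times the level of DNM1L with si-NC and 1.997 times with si-FTO. The annotated transcript on its opposite strand was at 0.0609 TPM in si-NC versus 0.119 TPM in si-FTO. With INF2, the 6 genes on the side of fission summed to 414 TPM in si-NC against 551 TPM in si-FTO. Without it the other 5 summed to 374 TPM with si-NC and 407 TPM with si-FTO.

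In order of level, si-NC ran from MIEF1 through FIS1, MFN2, MFF, DNM1L, OPA1, INF2, MFN1 and OMA1 to MIEF2. In si-FTO the order was FIS1, INF2, MFN2, MFF, DNM1L, MIEF1, MFN1, OPA1, OMA1 and MIEF2. Without an error for the means, genes next to each other in either order cannot be told apart, such as FIS1 at 106 TPM and MFN2 at 105 TPM in si-NC, or MFN1 at 30.1 TPM and OPA1 at 29.2 TPM in si-FTO. INF2 moved from place 7 to place 2, and MIEF1 from place 1 to place 6.

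A further 42 genes of mitochondrial dynamics, listed by role, were all found and compared. Of these, 4 were lower past the fold threshold and 0 were higher, beside 17.0% and 11.4% of all genes compared. Their median log2 ratio was -0.13, with 25 below 0 and 17 above, and it turned to 0.07 with median-ratio scaling. Their summed level was 3332 TPM in si-NC versus 2638 TPM in si-FTO. Abundant genes weigh most in this sum, such as STOML2, with a difference of -206 TPM between si-FTO and si-NC.

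Of 12 regulators of fusion, 3 were lower past the threshold, beside 17.0% of all genes compared. Their median log2 ratio on the deposited scale was -0.36, beside -0.20 for all genes compared. PLD6, a phospholipase of the outer membrane that promotes fusion, was at 23.9 TPM in si-NC against 10.1 TPM in si-FTO, with a log2 ratio of -1.16. STOML2, an inner membrane scaffold that takes part in stress-induced hyperfusion, was at 374 TPM with si-NC and 168 TPM with si-FTO, a log2 ratio of -1.15. USP30, a deubiquitinase of the outer membrane, was at 18.0 TPM in si-NC versus 7.56 TPM in si-FTO, with a log2 ratio of -1.15. With median-ratio scaling these 3 were no longer past the threshold, at -0.96 for PLD6, -0.94 for STOML2 and -0.96 for USP30. The highest log2 ratio, 0.68, was that of AFG3L2, a subunit of an inner membrane protease, at 64.9 TPM in si-NC against 105 TPM in si-FTO.

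Of 13 regulators of fission, the median log2 ratio on the deposited scale was -0.30, beside -0.20 for all genes compared. Past the threshold 1 was lower, beside 17.0% of all genes compared. It was MTFR2, a mitochondrial fission regulator expressed in dividing cells, at 17.5 TPM with si-NC and 6.64 TPM with si-FTO, with a log2 ratio of -1.27. DNM2, a dynamin best known from endocytosis, had the highest log2 ratio, 0.38, with 106 TPM in si-NC versus 139 TPM in si-FTO. None of the 11 genes of the MICOS complex, which shapes the cristae, and its outer membrane partners passed the threshold, with log2 ratios from -0.76 for CHCHD3, at 119.6 TPM in si-NC against 70.0 TPM in si-FTO, to 0.56 for APOO, at 51.1 TPM with si-NC and 75.9 TPM with si-FTO. Their median was 0.05. None of the 6 genes of mitochondrial transport along the cytoskeleton passed it either, and their median was 0.03. RHOT2, a GTPase that links mitochondria to motors, was at 145 TPM in si-NC versus 88.2 TPM in si-FTO, and TRAK2, a motor adaptor, was at 11.7 TPM in si-NC against 19.9 TPM in si-FTO, with log2 ratios of -0.71 and 0.72.

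**Figure D3:**
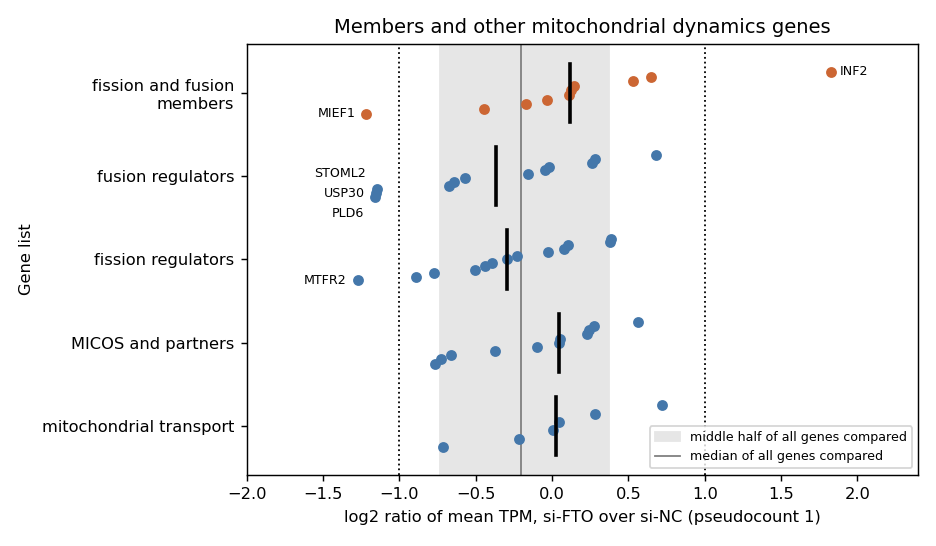
Log2 ratio of si-FTO over si-NC mean TPM, with 1 TPM added, for the 10 fission and fusion genes (orange) and 42 other genes of mitochondrial dynamics by role (blue), each point a gene and each black bar a median, with dotted lines at the fold threshold, the grey band marking the middle range from -0.74 to 0.38 of all genes compared and the grey line their median of -0.20. Only the genes named in the plot lie past the threshold, of which INF2 at 1.82 is the 1 on the higher side.

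The genes around each member on its chromosome were set beside it. For each member the 20 nearest genes on either side were taken among the 10687 placed genes with at least 10 TPM in at least 1 group, whose median log2 ratio was -0.16, with 14.96% lower and 13.3% higher past the fold threshold. MIEF1 lay in a stretch that was lower as a whole. Its 40 neighbours, which span 3.30 Mb of chromosome 22, had a median log2 ratio of -0.98, and 38 of them were below 0. Of the 40, 17 were lower past the threshold, which is 42.5%, and 1 was higher, the cytidine deaminase gene APOBEC3B, at 7.89 TPM with si-NC and 36.8 TPM with si-FTO. Of the 17, TPTEP2, DMC1, ENSG00000228274, DNAL4, SNORD83A, MGAT3 and XPNPEP3 reached 10 TPM in si-NC alone, and APOBEC3B reached it in si-FTO alone. The filter on low values thus took these genes in through the group in which they were high. The log2 ratio of MIEF1 differed from the median of its neighbours by -0.24, and 11 neighbours had lower values than MIEF1. These 11 include DMC1, ENSG00000228274, DNAL4, SNORD83A, MGAT3 and XPNPEP3, which were taken in through si-NC alone. On the near sides, MGAT3, taken in through si-NC alone, was at 12.4 TPM in si-NC versus 0.00909 TPM in si-FTO. ATF4, on the other side, was at 945 TPM in si-NC against 575 TPM in si-FTO. TOMM22, which encodes a receptor of the protein import channel in the outer membrane and was picked from this stretch after its values were seen, was at 185 TPM with si-NC and 62.4 TPM with si-FTO. The difference of MIEF1 and that of the stretch around it cannot be told apart from these values.

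INF2 was above the median of its neighbours. ADSS1 next to it, which reached 10 TPM in si-FTO alone, differed by a similar amount. The 37 neighbours of INF2, of which 17 lie between it and the end of chromosome 14, had a median log2 ratio of -0.18, with 3 lower and 6 higher past the threshold. INF2 exceeded that median by 2.01, and 33 neighbours had lower values. The 4 with higher values were TNFAIP2, TDRD9, AHNAK2 and CRIP1. These 4, CRIP2 and ADSS1 were the 6 higher past the threshold. All 6 reached 10 TPM in si-FTO alone, so the filter on low values took them in through the group in which they were high. The nearest genes were KIF26A, at 19.4 TPM in si-NC versus 19.99 TPM in si-FTO, and ADSS1, at 4.84 TPM in si-NC against 18.3 TPM in si-FTO, with log2 ratios of 0.04 and 1.72.

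For the remaining members the neighbours' medians lay between -0.53 around MFF and 0.46 around DNM1L. With 10 neighbours on either side, a choice made after the data were seen, they were -0.77 around MFF, 0.24 around DNM1L, -0.30 around FIS1, 0.17 around MFN1 and 0.27 around MFN2, and that around OPA1 turned from -0.00 to 0.20. MFF exceeded its neighbours' median by 1.06 and FIS1 by 0.82, and the other 6 differed from theirs by -0.44 for OPA1 to 0.25 for MIEF2. Among the other dynamics genes past the threshold, a comparison chosen after the values were seen, MTFR2 also lay in a lower stretch. Its 40 neighbours on chromosome 6 had a median log2 ratio of -0.98 with 19 lower and 7 higher past the threshold, and the median was -0.58 with 10 neighbours on either side. Of the 19, L3MBTL3, ENPP1, MOXD1, TBPL1, PEX7, HEBP2, NHSL1, NHSL1-AS1 and HECA reached 10 TPM in si-NC alone. Of the 7, ARHGAP18, CCN2, SGK1, PDE7B and ADGRG6 reached it in si-FTO alone. Here too the filter took genes in through the group in which they were high. The neighbours' medians were -0.17 around PLD6, -0.17 around STOML2 and -0.04 around USP30, and with 10 on either side -0.10 around PLD6, -0.19 around STOML2 and -0.18 around USP30.

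**Figure D4:**
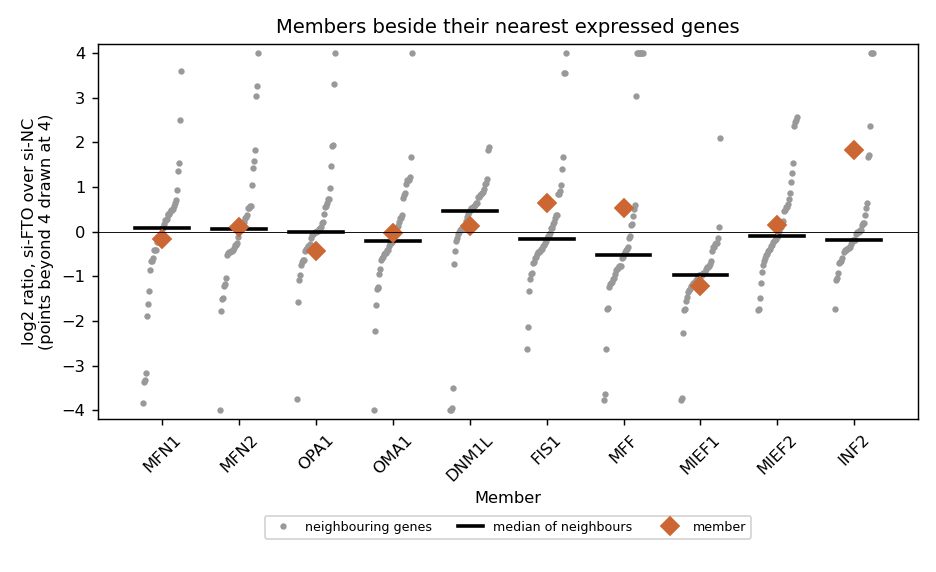
Log2 ratio of si-FTO over si-NC mean TPM of each member (orange diamonds) and of its nearest expressed genes on the same chromosome (grey points, sorted by value), with the neighbours' median as a black bar and points beyond 4 in size drawn at 4. The neighbours of MIEF1 have a median of -0.98, close to MIEF1 at -1.22, whereas INF2 at 1.82 lies above a median of -0.18.

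Because MIEF1 and INF2 differed in opposite directions, the 250 bases before their transcription starts are shown, with the motifs that were searched. The sequences are from RefSeq on GRCh38.p14, in which all 10 members were matched. Capitals mark matches on either strand to CCGGAAGT, bound by ETS factors, GCGCANGCG, bound by NRF1, TCAAGGTCA, bound by oestrogen-related receptors, AAGATGGCG, bound by YY1, or GGGCGG, bound by SP1 and its relatives. Of these, NRF1 and the oestrogen-related receptors are known regulators of nuclear genes for mitochondrial proteins. The table lists 1 start for MIEF1 and 4 for INF2, of which the first listed is shown. The MIEF1 window is chr22:39502040-39502289 and the INF2 window chr14:104689368-104689617, both on the plus strand.
MIEF1: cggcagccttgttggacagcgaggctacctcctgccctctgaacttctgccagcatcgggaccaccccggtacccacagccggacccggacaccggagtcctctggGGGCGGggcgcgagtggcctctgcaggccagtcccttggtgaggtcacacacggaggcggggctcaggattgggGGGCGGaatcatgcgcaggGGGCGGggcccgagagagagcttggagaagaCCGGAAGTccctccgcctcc
INF2: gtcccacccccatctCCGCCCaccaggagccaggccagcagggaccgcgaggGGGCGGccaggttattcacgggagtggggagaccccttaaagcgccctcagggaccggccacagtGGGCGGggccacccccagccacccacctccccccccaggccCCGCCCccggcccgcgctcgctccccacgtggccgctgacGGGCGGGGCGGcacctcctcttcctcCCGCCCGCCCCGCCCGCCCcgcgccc
The MIEF1 window has a GC content of 69.2% and the INF2 window 78.8%, against a median of 58% over 35116 promoters. MIEF1 holds GGGCGG 3 times and CCGGAAGT 1 time, the latter ending 13 bases before the start. INF2 holds GGGCGG in overlapping runs on both strands, and its shown start has no match to the other motifs.

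Over the 16 windows of the 10 members, CCGGAAGT was found in 4, of MFN1, FIS1, MIEF1 and another start of INF2, and in 3.42% of all promoters. The matches are shown with their flanks, each in the direction of the gene, and in INF2 the motif reads on the opposite strand.
MFN1: gaggcaagaggCCGGAAGTgaccgcccttt
FIS1: tccgccggacgCCGGAAGTg
MIEF1: cttggagaagaCCGGAAGTccctccgcctc
INF2: tgagccagcaaACTTCCGGggctggggctg
GCGCANGCG was found in 2 windows, of OMA1 and OPA1, and in 6.56% of all promoters. In OPA1 the matches on both strands overlap, and in OMA1 the motif reads on the opposite strand.
OMA1: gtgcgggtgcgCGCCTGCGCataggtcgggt
OPA1: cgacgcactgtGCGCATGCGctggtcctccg
GGGCGG was found in 11 windows of 9 members, all but MFN2, and in 42.6% of all promoters. TCAAGGTCA and AAGATGGCG were in 0 member windows and in 0.319% and 0.652% of all promoters. The genes with CCGGAAGT include MIEF1, which was lower in si-FTO, and INF2, which was higher and holds it only at a start other than the one shown. Values per gene do not tell which INF2 start was used, and a part of the motif in these differences was not tested. A match describes the letters in the window and shows no binding.

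Of the other genes the study assayed, only mRNA levels are given here. The study measured PINK1 as protein, which it reported as lower after FTO depletion, and cytochrome c by its release into the cytoplasm. The mRNA of PINK1, the kinase that starts the removal of damaged mitochondria, was at 45.1 TPM with si-NC and 101 TPM with si-FTO. Its log2 ratio was 1.14. CYCS, which encodes cytochrome c, was at 105 TPM in si-NC versus 87.4 TPM in si-FTO. CAV1, the caveolin gene that the study examined as an FTO target, was at 9.98 TPM in si-NC against 33.6 TPM in si-FTO, with a log2 ratio of 1.66. PINK1 and CAV1 were past the fold threshold, as were 28.5% of all genes compared in either direction.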

How the data were processed

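Total RNA of 6 AGS libraries, 3 per group, was made into libraries with a stranded KAPA kit and sequenced on an Illumina HiSeq. According to the methods, the authors mapped reads to hg19 with Bowtie and quantified genes with RSEM, whereas the submitters' processing notes name HISAT2, so the aligner is uncertain, and versions and annotation are not given in the sources used here. The deposited values are TPM as 1 mean per group. A value of 0.0001 was read as 0. The table also holds the authors' log2 ratio, p-value and q-value per gene, which were not used, and a second table of selected genes was not used.

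Symbols were matched for 55726 of 58174 genes. PECAM1 was not matched. The log2 ratio of si-FTO to si-NC was computed with a pseudocount of 1, for genes with at least 0.5 TPM in at least 1 group. A limma fit was planned for values per library and was not run on group means. TPM keeps no depth, so precision is unknown. Named were all members, and of each other dynamics list the genes past the threshold and, in a direction with none, the gene with the most extreme ratio, with the study's assayed genes and cell type markers. Some genes covered by this rule are not reported here. Neighbours were named after their values were seen. Members and lists were chosen with earlier results of these data known. Coordinates are from GENCODE v44 lifted to GRCh37. Calculations used Python 3.11.15, numpy 2.4.6, pandas 2.3.3 and matplotlib 3.10.9 and were tested on simulated data. As alternatives, 0.1 was added in place of 1, the filter was dropped or raised to 5 TPM, and the ratios were recomputed with median-ratio scaling, quantile normalization, a 1.5-fold threshold or, added after the data were seen, 10 neighbours on either side.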

Additional observations from a re-analysis of the deposited data

How the results depend on the processing

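Of the 6 alternatives, a pseudocount of 0.1, median-ratio scaling and quantile normalization can change a ratio. Under these the 10 members gave 30 values, all on the same side of the threshold as with the deposited scale and a pseudocount of 1, with a change of sign in 3. With median-ratio scaling MFN2 was at 0.32, DNM1L at 0.33 and MIEF2 at 0.33. With quantile normalization MFN2 was at 0.05 and MIEF2 at 0.41. INF2 ranged from 1.81 to 2.03 and MIEF1 from -1.24 to -1.01. With a 1.5-fold threshold FIS1 at 0.65 was also past it, making 2 members higher, and 12 other dynamics genes were lower and 2 higher, beside 6397 lower and 3855 higher among all genes compared. With a minimum of 5 TPM, 2254 of all genes were lower, since fewer genes were compared. With median-ratio scaling, 1 other dynamics gene was lower, since this scaling adds to every ratio. The 3 changes of sign were in MFN1 and OMA1, both within the threshold, and came with the scalings. A pseudocount of 0.1 gave 5147 lower and 3280 higher among all genes compared. No paired analysis was possible because the table holds 1 mean per group, and leaving out each replicate was not run for the same reason. The unknown depth and the unknown error between libraries limit every value.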

Other observations

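The 13 mRNAs encoded by mitochondrial DNA, chosen after their values were seen, summed to 122676 TPM in si-NC against 103758 TPM in si-FTO. Their median log2 ratio was -0.47, with 12 of 13 below 0 and 0 past the fold threshold, beside a median of -0.20 and 12279 of 20493 below 0 among all genes compared. These values are on the deposited scale, and median-ratio scaling, which removes a shift of -0.21, is not reported for them. MT-ND1 at -0.20, MT-CO1 at -0.15, MT-ND4 at -0.12 and MT-CO3 at -0.04 were smaller in size than that shift. The lowest was MT-ND3, a subunit of complex I, at 3540 TPM with si-NC and 1793 TPM with si-FTO, and the highest was MT-ND4L, at 8907 TPM in si-NC versus 9698 TPM in si-FTO.

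Other genes of mitochondrial dynamics on chromosome 22, also picked after their values were seen, were SAMM50, part of the outer membrane assembly complex, at 129.8 TPM in si-NC against 77.8 TPM in si-FTO, and MTFP1, an inner membrane protein of fission, at 90.1 TPM with si-NC and 73.1 TPM with si-FTO. Their log2 ratios were -0.73 and -0.30.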
